A study of Mus musculus with 21 samples.

Results

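Phlda3 and 9 genes of the p53 pathway (Trp53, Cdkn1a, Mdm2, Ccng1, Bax, Trp53inp1, Sesn2, Zmat3 and Eda2r) were followed in cells sorted from the mouse main olfactory epithelium, to ask whether the level of Phlda3 and the levels of other p53 targets moved together. The genes were taken by name from both deposited tables of transcript levels, where all 10 were found among 22786 genes present in both. Phlda3 was selected on its measured TPM, which was higher in olfactory sensory neurons (OSN) carrying Mex3a than in OSN carrying the control construct. Its values in that comparison, and in every comparison that shares those libraries, are therefore given as a description with no test. The other 9 were named as p53 pathway genes, with earlier results of these data known.

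All 21 libraries came from transgenic mice, and the study had no wild-type mice. The HT mice were gg8tTA; OMPtTA; tetO-HyperTRIBE_mCherry, and the MexHT mice were gg8tTA; OMPtTA; tetO-Mex3a_HyperTRIBE_mCherry. A further set of mice, called gg8 MexHT here, was gg8tTA; tetO-Mex3a_HyperTRIBE_mCherry, without OMPtTA. HyperTRIBE is an RNA-editing tool built on the catalytic domain of an ADAR enzyme, and Mex3a binds RNA through its KH domains. The gg8 driver acts in immature OSN and the OMP driver in mature OSN. mCherry-positive cells are called OSN here, because the labels give them as immature and mature OSN with both drivers and as immature OSN with gg8 alone. The mCherry-negative cells of each mouse served as its internal control. OSN libraries numbered 6 for MexHT, 3 for HT and 2 for gg8 MexHT mice, and mCherry-negative libraries numbered 5, 3 and 2. The labels give no ages. The library names carry one month for both-driver mice and another for gg8 mice, so the effect of the driver cannot be told apart from that of the date.

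p53, encoded by Trp53, is a transcription factor that is held at a low level by the ubiquitin ligase Mdm2 and is stabilised by DNA damage and other stresses. It then raises genes that stop the cell cycle, repair DNA or start apoptosis, and it also raises Mdm2, which closes a feedback loop. Phlda3 is a p53 target whose product, a short protein with a pleckstrin homology domain, competes with the kinase Akt for membrane lipids and so restrains survival signalling. In the olfactory epithelium, basal stem cells divide throughout life to replace sensory neurons that die.

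Phlda3 lies on chromosome 1 (chr1:135766085-135769134, plus strand) and is protein coding in the RefSeq annotation of GRCm38.p6, the assembly with the coordinates of mm10. The windows from 250 bases before to 50 bases after the RefSeq start site are shown for 4 members, because they differ in whether they hold a match to the p53 half-site, the 10-base element that p53 binds in pairs. Capitals mark matches. Both strands were searched. A pair means half-sites at most 13 bases apart with at most 1 mismatch over their 20 bases.
Phlda3, chr1:135765835-135766134, plus strand: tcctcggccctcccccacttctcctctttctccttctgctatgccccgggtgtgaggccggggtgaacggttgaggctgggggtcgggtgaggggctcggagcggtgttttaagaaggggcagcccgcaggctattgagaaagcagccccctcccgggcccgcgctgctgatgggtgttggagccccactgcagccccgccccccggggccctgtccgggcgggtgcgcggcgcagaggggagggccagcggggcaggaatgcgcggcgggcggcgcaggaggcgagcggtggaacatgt
Cdkn1a, chr17:29090729-29091028, plus strand: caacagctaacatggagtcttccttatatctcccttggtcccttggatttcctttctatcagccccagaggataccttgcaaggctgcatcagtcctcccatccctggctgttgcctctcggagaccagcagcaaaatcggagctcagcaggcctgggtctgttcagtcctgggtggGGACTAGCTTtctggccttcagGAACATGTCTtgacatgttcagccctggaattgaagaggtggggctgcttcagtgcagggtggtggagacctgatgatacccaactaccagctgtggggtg
Bax, chr7:45466849-45467148, minus strand: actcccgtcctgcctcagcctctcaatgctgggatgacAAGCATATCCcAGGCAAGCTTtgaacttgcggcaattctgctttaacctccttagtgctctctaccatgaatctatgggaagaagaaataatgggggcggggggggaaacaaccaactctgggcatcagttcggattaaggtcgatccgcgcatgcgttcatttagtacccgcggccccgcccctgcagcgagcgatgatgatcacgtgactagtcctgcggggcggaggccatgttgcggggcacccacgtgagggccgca
Ccng1, chr11:40755237-40755536, minus strand: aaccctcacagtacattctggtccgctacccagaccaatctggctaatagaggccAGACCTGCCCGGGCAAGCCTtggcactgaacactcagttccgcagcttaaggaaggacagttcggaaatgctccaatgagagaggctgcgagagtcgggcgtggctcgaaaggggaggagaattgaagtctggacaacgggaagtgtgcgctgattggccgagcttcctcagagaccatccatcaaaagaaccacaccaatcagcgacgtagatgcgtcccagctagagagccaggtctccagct
The Cdkn1a window, at the first of 2 listed start sites, held 2 half-sites with 12 bases between them and no mismatch. The 10 bases right after the second of these fit a half-site with 1 mismatch. They form another pair with it, with 0 bases between, and are left in lower case. The windows of Bax and Ccng1 held a pair with 1 mismatch, with 1 and 0 bases between the half-sites. No match was found in the Phlda3 window, nor in those of Sesn2 and Eda2r. The last bases of the Phlda3 window fit the start of a half-site that the window edge cuts, so it could not be scored. Trp53 and Mdm2 held 1 half-site each. Of 32851 RefSeq promoter windows of 300 bases, 8.36% held a half-site without mismatch and 1.09% held a pair as defined. The windows of 8 of 10 members were in the table, and those of Trp53inp1 and Zmat3 were not used here. A match describes letters, and its absence says nothing of sites outside the window.

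Levels are in TPM (transcript levels corrected for length and scaled to the same total in each library). Whole counts could be recovered from the TPM values, and they gave total counts of 7407076 to 12413032 for the libraries with both drivers and 10261268 to 15215673 for the gg8 libraries. Mex3a was at 328 to 1271 TPM in MexHT OSN and 24.0 to 61.5 TPM in HT OSN (log2 difference 3.68, SE 0.45, limma adjusted p = 0.000406). In mCherry-negative cells Mex3a was at 57.8 to 207 TPM in MexHT and 29.3 to 74.3 TPM in HT mice (1.13, SE 0.42, limma adjusted p = 0.219). It was at 101 to 211 TPM in those of gg8 mice. Adar, which shares its enzyme family with the construct's editing domain, was at 377 to 1198 TPM in MexHT OSN and 1033 to 1155 TPM in HT OSN (-1.03, SE 0.35, limma adjusted p = 0.0399), against 42.0 to 90.5 TPM in mCherry-negative cells of all mice. Adar is named after its values were seen, and its part in the results was not tested. Markers of mature OSN, summed over 12 genes, ranged from 2362 to 6934 TPM in MexHT OSN and from 9461 to 14658 TPM in HT OSN, while those of immature OSN, over 10 genes, ranged from 4671 to 5387 and from 3086 to 3326 TPM. Of these, 10 of 12 mature markers were called lower and 6 of 10 immature markers higher in MexHT OSN (limma adjusted p at most 0.05). One further immature marker, 1 of 10, was called lower. Of all genes tested, 16.8% were called lower and 19.9% higher. MexHT OSN replicates 5 and 6 stood apart from replicates 1 to 4: Mex3a was at 1271 and 679 TPM there against 328 to 359, and markers of progenitors and cycling cells were at 930 and 454 TPM against 232 to 280. In HT OSN replicate 3, macrophage markers summed to 5366 TPM, against 1293 and 1585 TPM in the other HT OSN libraries and 297 to 581 TPM in MexHT OSN. All 10 were called lower in MexHT OSN, beside the same 16.8% of all genes. Xist, which is transcribed from the inactive X chromosome, was at 58.4 to 140 TPM in all 6 MexHT OSN and at 60.3 TPM in HT OSN replicate 2, but at 0.126 and 0.140 TPM in HT OSN replicates 1 and 3. No marker of OSN, progenitors or macrophages was at 0 in a whole group, and the part of these differences in the results below was not tested. These libraries are bulk samples, in which fewer cells of a type and less RNA per cell cannot be told apart.

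Phlda3 was nearly absent from HT OSN. Its levels there were 0.383, 0.582 and 1.22 TPM in replicates 1, 2 and 3, which rest on 2, 3 and 5 counts. In MexHT OSN replicates 1 to 6 it was at 33.4, 33.7, 22.7, 45.3, 78.7 and 98.3 TPM, from 92 to 476 counts. The 2 groups did not overlap, and the means were 52.0 ± 29.8 TPM (SD, n = 6) and 0.728 ± 0.437 TPM (SD, n = 3). Per recovered count of all genes, the ratio of the summed counts was 80.4, with a 95% exact interval of 43.6 to 168 that covers counting error only. On the scale of log2(TPM + 1) the difference was 4.78 (SE 0.42, not tested), and 4.32 without MexHT OSN replicates 5 and 6. Because the pseudocount of 1 is above most HT OSN levels, it was 5.91 with a pseudocount of 0.1 and 5.89 with voom on the counts.

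The mCherry-negative cells lay between these groups in both kinds of mice. In HT mCherry-negative replicates 1 to 3 Phlda3 was at 6.39, 5.51 and 11.2 TPM, all above the HT OSN libraries of the same mice. In MexHT mCherry-negative replicates 1 to 5 it was at 38.3, 7.98, 10.5, 15.0 and 9.63 TPM. Replicate 1 was the high one, and it also held the highest sums of basal, sustentacular and ensheathing glia markers of that group (1654, 1931 and 223 TPM, against at most 598, 554 and 37.5 TPM in the other 4), whose part in the result was not tested. In order of mean level, MexHT OSN (52.0 TPM) was followed by MexHT mCherry-negative (16.3 ± 12.6 TPM, SD, n = 5), HT mCherry-negative (7.69 ± 3.04 TPM, SD, n = 3) and HT OSN. MexHT OSN overlapped MexHT mCherry-negative only through that replicate 1, and the 2 mCherry-negative groups overlapped. Thus Phlda3 was lower in OSN than in mCherry-negative cells of HT mice (log2 difference -2.30, SE 0.35, not tested) and higher in MexHT mice (1.67, SE 0.43, not tested). The HT difference was -3.29 with a pseudocount of 0.1 and -3.39 with voom.

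**Figure D1:**
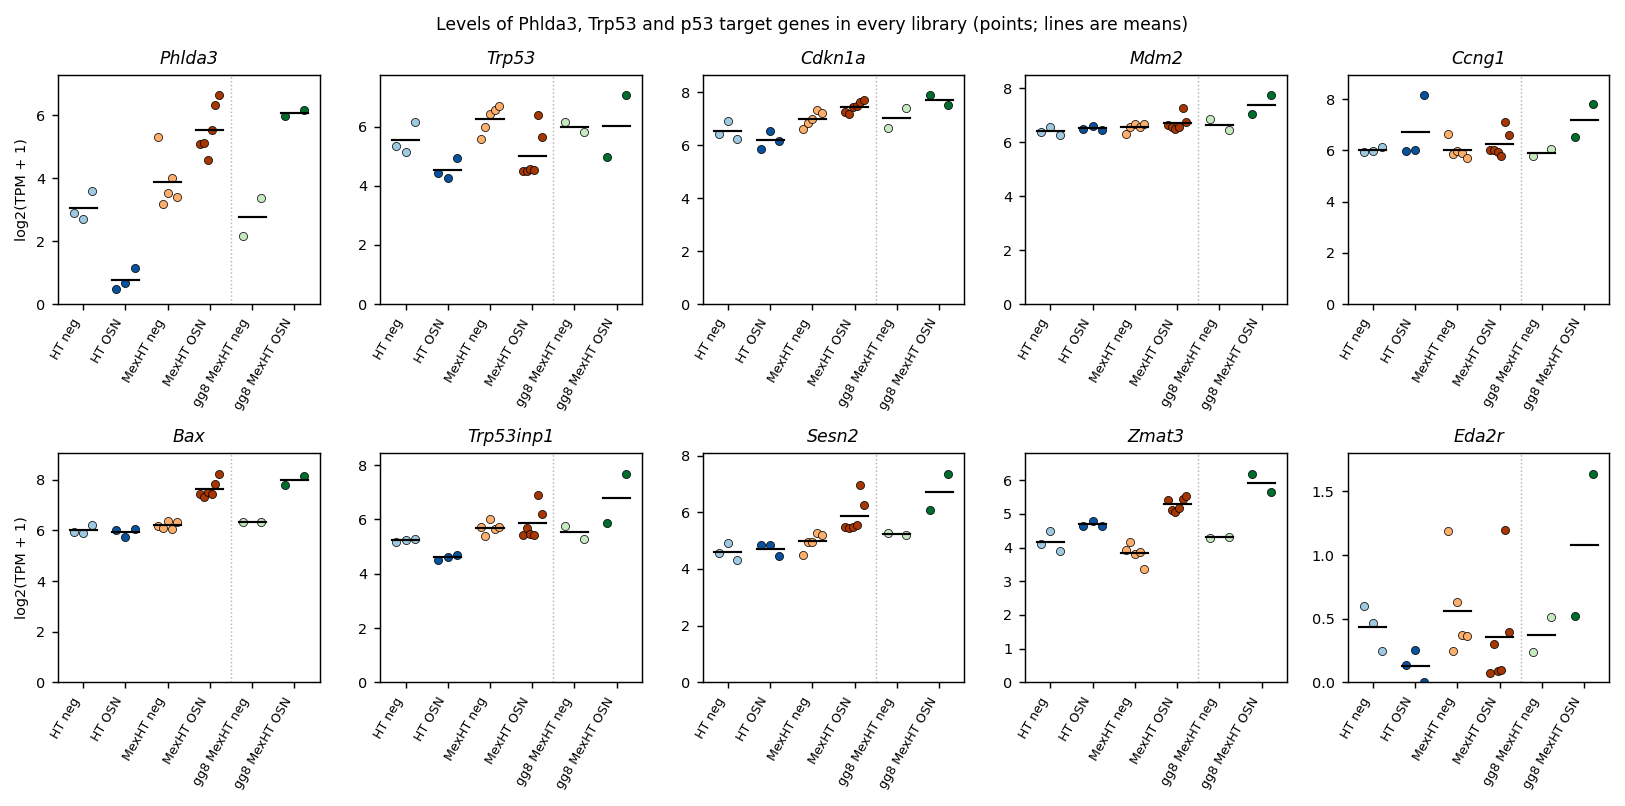
Each panel shows 1 member, with log2(TPM + 1) on a linear axis that starts at 0. Points are libraries in replicate order, lines are group means, "neg" is mCherry-negative, and the dotted line separates the 2 tables, which were scaled separately; Phlda3 in HT OSN sits at or below 1.22 TPM, under every other library.

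In gg8 mice Phlda3 was at 62.0 and 71.1 TPM in gg8 MexHT OSN replicates 1 and 2. In the mCherry-negative cells of the same mice it was at 3.52 and 9.46 TPM. These libraries are not in the comparison that selected it, but earlier results of these data were known when the members were chosen. Both OSN libraries were above both mCherry-negative libraries. The log2 difference was 3.29 (SE 0.52, 95% interval 2.05 to 4.54), and it passed the test (limma adjusted p = 0.0255). Among all genes tested, 33.5% had both OSN libraries above both others. Phlda3 was still called with the mouse as a block (adjusted p = 0.0142) and without gg8 MexHT OSN replicate 1 (adjusted p = 0.0320). It was not called without gg8 MexHT OSN replicate 2 (adjusted p = 0.115) or without gg8 MexHT mCherry-negative replicate 1 or 2 (adjusted p = 0.272 and 0.386), in fits that leave 1 library in a group and assume that it varies like the other group. Mature OSN markers also differed in this comparison, at 340 to 935 TPM in gg8 MexHT OSN and 8292 to 14549 TPM in mCherry-negative cells, and their part in the result was not tested. No HT mice were made with gg8 alone among the samples used here, so this difference does not separate Mex3a from the sorted fraction.

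In mCherry-negative cells, Phlda3 did not pass the test between MexHT and HT mice (log2 difference 0.81, SE 0.47, 95% interval -0.25 to 1.88, limma adjusted p = 0.327). Without MexHT mCherry-negative replicate 1 the difference was 0.46.

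MexHT OSN and HT OSN differ by labels in the presence of Mex3a in the construct, and between them 5 of the 8 other members that passed the filter of a mean of 1 TPM rose: Bax, Cdkn1a, Trp53inp1, Sesn2 and Zmat3. None fell. Trp53 itself, Mdm2 and Ccng1 did not pass the test, and Eda2r was under the filter. In this comparison 36.8% of 16067 genes tested were called, 19.9% of those tested as higher and 16.8% as lower. The median log2 difference of the 8 members was 0.88, against 0.03 over all genes tested. With the Xist level as a covariate, 1 of the 8 members was called, Bax, among 329 genes in all. The log2 differences in that fit were 1.82 for Bax, 1.09 for Trp53inp1, 0.82 for Sesn2, 0.77 for Cdkn1a and 0.51 for Zmat3.

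Bax encodes the protein that permeabilises the outer mitochondrial membrane in apoptosis. It was at 63.8, 53.03 and 66.3 TPM in HT OSN replicates 1 to 3 and at 170, 159, 181, 173, 230 and 301 TPM in MexHT OSN replicates 1 to 6. No MexHT OSN library was as low as any HT OSN library, and replicates 5 and 6 were the highest. Bax rose by 1.68 on the log2 scale (SE 0.19, 95% interval 1.25 to 2.11, limma adjusted p = 0.000286), with adjusted p from 6.38e-06 to 0.0364 over the alternatives tried.

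Cdkn1a encodes p21, the inhibitor of cyclin-dependent kinases through which p53 arrests the cell cycle. Its levels were 56.4, 92.5 and 70.1 TPM in HT OSN replicates 1 to 3 and 152, 142, 175, 179, 199 and 210 TPM in MexHT OSN replicates 1 to 6. The groups did not overlap. Cdkn1a rose by 1.27 on the log2 scale (SE 0.17, limma adjusted p = 0.000576), and with the Xist covariate the adjusted p was 0.109, the highest of a range that began at 0.000161.

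Trp53inp1 encodes a stress protein that promotes p53 activity and autophagy. It was at 22.0, 23.5 and 24.7 TPM in HT OSN and at 42.2, 50.8, 43.0, 42.5, 118 and 72.4 TPM in MexHT OSN, in order of replicate. The lowest MexHT OSN level exceeded the highest HT OSN level, and replicates 5 and 6 stood above the other 4. Trp53inp1 rose by 1.25 on the log2 scale (SE 0.30, limma adjusted p = 0.00952; 0.000372 to 0.275 over the alternatives, the highest with the Xist covariate).

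Sesn2 encodes sestrin 2, which restrains mTORC1 and is raised by p53 and also by the stress factor Atf4. Its levels were 27.7, 28.1 and 21.0 TPM in HT OSN and 43.4, 42.6, 43.5, 46.4, 123 and 76.1 TPM in MexHT OSN, in order of replicate. The same 2 libraries, replicates 5 and 6, were the highest. They were also the highest for Atf4 (929 and 716 TPM, against 383 to 433 TPM in replicates 1 to 4). Atf4 was at 406 to 435 TPM in HT OSN (log2 difference 0.29, SE 0.28, limma adjusted p = 0.425), and its part in the result was not tested. For Sesn2 the log2 difference was 1.14 (SE 0.32, limma adjusted p = 0.0195, and 0.00134 to 0.425 over the alternatives). Sesn2 was not called without HT OSN replicate 1 (adjusted p = 0.0519) or 3 (adjusted p = 0.0729), nor with the Xist covariate (adjusted p = 0.425).

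Zmat3 encodes an RNA-binding zinc finger protein induced by p53. It was at 23.9, 26.4 and 24.2 TPM in HT OSN and at 41.9, 33.7, 32.5, 35.3, 43.0 and 45.2 TPM in MexHT OSN, in order of replicate. The groups did not overlap and were 0.61 apart on the log2 scale (SE 0.14, limma adjusted p = 0.00681; 0.00661 to 0.266 over the alternatives, the highest with the Xist covariate). Of all genes tested, 21.5% had every MexHT OSN library above every HT OSN library, as did these 5 members.

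Trp53 was at 20.6, 18.3 and 29.9 TPM in HT OSN and at 21.7, 21.6, 22.6, 22.1, 83.5 and 49.0 TPM in MexHT OSN, in order of replicate. Replicates 1 to 4 lay within the HT OSN range, and only replicates 5 and 6 were above it. The log2 difference was 0.47 (SE 0.42, 95% interval -0.46 to 1.41, limma adjusted p = 0.401), and it was -0.03 without replicates 5 and 6. Without those libraries Bax, Cdkn1a, Trp53inp1, Sesn2 and Zmat3 were all still called.

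Mdm2 did not pass the test, at 89.6, 95.9 and 87.1 TPM in HT OSN and 98.6, 94.9, 89.9, 94.8, 152 and 108 TPM in MexHT OSN (log2 difference 0.20, SE 0.16, 95% interval -0.14 to 0.55, limma adjusted p = 0.331). Replicate 5 was the high library. Ccng1, which encodes cyclin G1, a binding partner of protein phosphatase 2A, had 1 HT OSN library far above all others. It was at 61.5, 63.6 and 282 TPM in HT OSN replicates 1 to 3 and at 63.7, 63.2, 59.7, 54.3, 135 and 97.0 TPM in MexHT OSN replicates 1 to 6. The log2 difference was -0.47 (SE 0.46, limma adjusted p = 0.449), and 0.25 without HT OSN replicate 3, the library with the high macrophage markers. Eda2r, a receptor for ectodysplasin A2, was at 0 to 0.196 TPM in HT OSN and 0.0520 to 1.29 TPM in MexHT OSN, from 0 to 31 counts a library, and 3 of 6 MexHT OSN and 2 of 3 HT OSN libraries held 3 counts or fewer. Eda2r did not exceed 2.11 TPM in any library of either table.

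**Figure D2:**
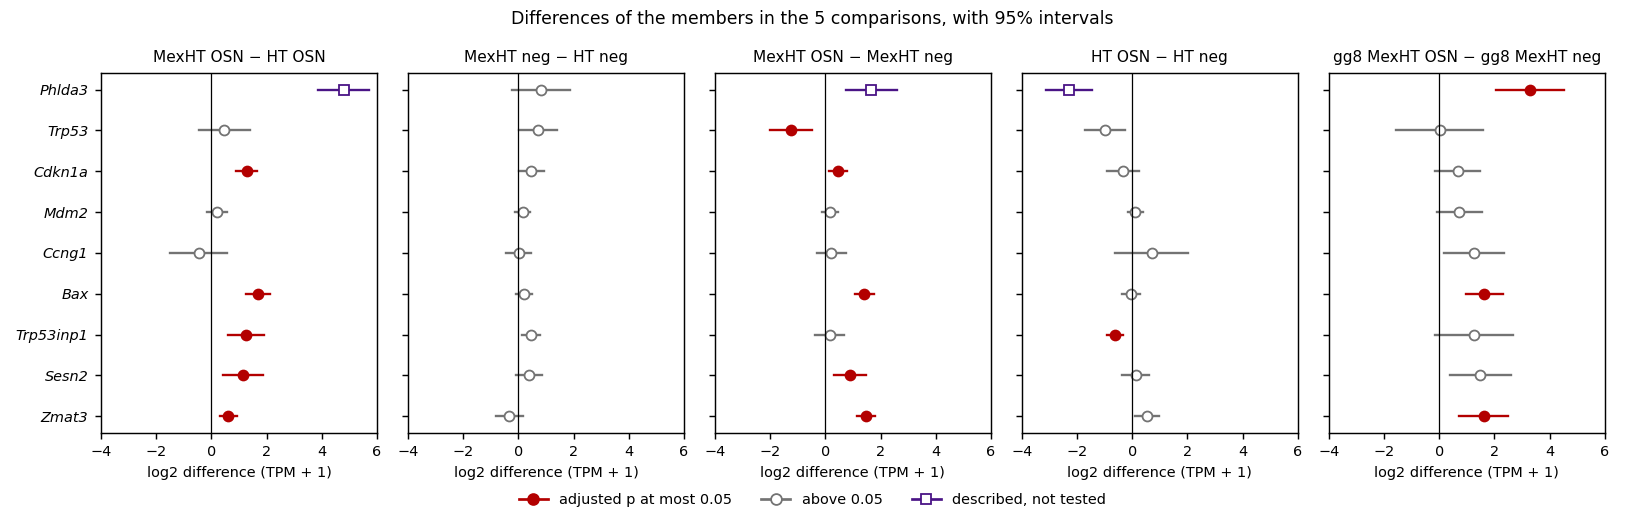
Log2 differences of the 9 members above the filter, with 95% intervals, in each of 5 comparisons ("neg" is mCherry-negative). Filled circles passed the adjusted threshold of 0.05, open circles did not, and open squares are the Phlda3 values given without a test; Bax and Zmat3 are filled in 3 of the panels.

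In mCherry-negative cells, MexHT against HT mice, none of the 8 members passed the limma test, 3 had an unadjusted p under 0.05, and voom on the recovered counts called none either. The share called among all 16860 genes was 0.0% after adjustment. The share of all genes under the unadjusted limit was not counted, so nothing is drawn from the 3. Those 3 were Trp53, Cdkn1a and Trp53inp1. Trp53 was at 47.5 to 103 TPM (median 85.6) in 5 MexHT and 39.8, 34.2 and 70.2 TPM in 3 HT libraries (log2 difference 0.71, SE 0.30, limma adjusted p = 0.238). Trp53inp1 was at 41.4 to 63.9 TPM (median 51.3) against 34.9, 37.0 and 37.4 TPM, without overlap (0.47, SE 0.14, limma adjusted p = 0.218). 3.64% of all genes had every MexHT mCherry-negative library above every HT one. Bax was at 66.1 to 82.5 TPM (median 71.3) in MexHT and 60.1, 58.4 and 72.3 TPM in HT mCherry-negative cells, where the groups overlapped (0.20, SE 0.13, limma adjusted p = 0.363).

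The difference between constructs was itself compared between the fractions, as an interaction over the 17 libraries with both drivers. Bax (1.48, SE 0.24, limma adjusted p = 0.00180) and Zmat3 (0.94, SE 0.25, limma adjusted p = 0.0213) were called, both with a more positive difference in OSN, and 12.4% of 16785 genes were called. For Zmat3 the MexHT-to-HT difference was 0.61 in OSN and -0.33 in mCherry-negative cells (SE 0.21, limma adjusted p = 0.378 for the latter). Cdkn1a was not called (0.80, SE 0.28, adjusted p = 0.0662), but it was with the mouse as a block (0.75, adjusted p = 0.0132). Zmat3 was not called without HT OSN replicate 1 (adjusted p = 0.0515) or without HT mCherry-negative replicate 2 (adjusted p = 0.0725), in a range of 0.0121 to 0.0725. For Phlda3 the interaction was 3.97 (SE 0.67, not tested), and 5.03 with a pseudocount of 0.1 and 4.95 with voom. Of the calls over all genes, 56.8% were higher, a share that was 40.4% with median-of-ratios scaling and 35.4% with voom, while Bax and Zmat3 were called higher under both. All 10 macrophage markers were called lower in MexHT in this interaction (median -2.56), beside 5.37% of all genes, and their part in the result was not tested.

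Between fractions of the same mice, the members went both ways. In MexHT mice Bax (log2 difference 1.42, SE 0.16), Zmat3 (1.47, SE 0.15), Sesn2 (0.89, SE 0.27) and Cdkn1a (0.46, SE 0.14) were higher in the OSN fraction, and Trp53 was lower (-1.24, SE 0.36), with limma adjusted p of 7.64e-06, 4.42e-06, 0.0114, 0.0144 and 0.00861. This made 5 of 8 members called in a comparison where 63.4% of 16522 genes were called. Trp53 was at 47.5, 63.0, 85.6, 93.4 and 103 TPM in MexHT mCherry-negative replicates 1 to 5, so that 4 of 6 OSN libraries lay under all of them. The call of Cdkn1a was lost with median-of-ratios scaling (adjusted p = 0.0919), with voom (adjusted p = 0.107) and without MexHT OSN replicates 5 and 6 (adjusted p = 0.0609), in a range from 0.00739 to 0.107. Median-of-ratios scaling moved the median of all genes here from 0.16 to 0.03, and the other 4 calls held under it.

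In HT mice 1 of the 8 members was called between the fractions, Trp53inp1, at 22.0 to 24.7 TPM in HT OSN and 34.9 to 37.4 TPM in HT mCherry-negative cells (log2 difference -0.62, SE 0.12, limma adjusted p = 0.0212), in a comparison where 11.3% of 17027 genes were called. This call was lost without 4 of the 6 libraries in turn, HT OSN replicates 1 and 2 and HT mCherry-negative replicates 1 and 3, and with all 4 both-driver groups in 1 fit (adjusted p from 0.0155 to 0.153). With the mouse as a block, Trp53 (-0.996, adjusted p = 0.00655) and Zmat3 (0.53, adjusted p = 0.0475) were also called. Bax did not pass the test (-0.06, SE 0.14, 95% interval -0.38 to 0.27, limma adjusted p = 0.784). Granulocyte and connective tissue markers were far higher in the mCherry-negative cells of both kinds of mice, at 5655 to 14004 and 7832 to 23576 TPM against 127 to 408 and 95.1 to 325 TPM in OSN, and their part in these results was not tested. Mature OSN markers were also present in mCherry-negative cells, at 5642 to 11693 TPM in HT and 662 to 7557 TPM in MexHT mice. In OSN they were at 9461 to 14658 and 2362 to 6934 TPM. None of the 12 passed the test between HT fractions, and 2 were called higher in OSN between MexHT fractions, beside 2.18% and 35.8% of all genes.

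In gg8 mice, 2 of the 8 members rose in OSN, Bax and Zmat3, in a comparison where 1.12% of 16490 genes were called higher, 7.2% lower and 8.32% in either direction. Bax was at 221 and 285 TPM in OSN replicates 1 and 2 and at 80.4 and 78.9 TPM in mCherry-negative cells (log2 difference 1.64, SE 0.28, limma adjusted p = 0.0283; 0.0220 to 0.386 over the alternatives). Zmat3 was at 72.3 and 49.7 TPM against 18.6 and 19.1 TPM (1.62, SE 0.37, limma adjusted p = 0.0478; 0.0374 to 0.415 over the alternatives). Zmat3 was not called with the mouse as a block (adjusted p = 0.0540), a pseudocount of 0.1, no filter, the 100 highest genes left out of the scaling, or without OSN replicate 1 (adjusted p = 0.0506). Bax was not called with voom (adjusted p = 0.0531), and neither was called without OSN replicate 2 or without either mCherry-negative library.

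The 2 gg8 OSN libraries differed in most of the other members. Mex3a was at 460 TPM in replicate 1 and 1632 TPM in replicate 2. Trp53 was at 30.4 and 133 TPM, Ccng1 at 91.5 and 225 TPM, Trp53inp1 at 57.4 and 205 TPM and Sesn2 at 66.8 and 163 TPM in the same order, against 71.0 and 56.0, 53.2 and 64.9, 52.8 and 38.3, and 37.3 and 35.5 TPM in the mCherry-negative cells. Replicate 2 was the higher of the pair for each of these genes and also for Atf4 (1286 against 442 TPM), while Phlda3, at 71.1 against 62.0 TPM, was close in both. Cdkn1a ran the other way, at 235 TPM in replicate 1 and 181 TPM in replicate 2. Xist was at 0.441 and 159 TPM in OSN replicates 1 and 2 and at 0.144 and 21.4 TPM in the mCherry-negative cells of the same mice. Without OSN replicate 1, Ccng1, Trp53inp1 and Sesn2 were called together with Bax (4 of 8 members), in a fit that called 3703 genes, against 1372 with both libraries, and that takes the spread from the mCherry-negative libraries alone. Trp53 had a log2 difference of 0.02 (SE 0.65), which was -0.06 to -0.05 under the other scalings.

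Outside the members, 34 further p53 targets were listed, of which 32 passed the filter in MexHT OSN and HT OSN. Of these 12 rose, 4 fell and 16 did not pass the test, beside 19.9% of all genes higher and 16.8% lower, and their median log2 difference was 0.19. Among those that rose, Aen, an exonuclease that acts in apoptosis, had 74.5 ± 27.5 TPM (SD, n = 6) in MexHT OSN and 14.4 ± 4.12 TPM (SD, n = 3) in HT OSN (log2 difference 2.26, SE 0.28, limma adjusted p = 0.000397). Gtse1, which is expressed in the G2 and S phases and moves p53 out of the nucleus, rose by 2.06 (SE 0.64) and varied widely, from 3.90 to 41.7 TPM in MexHT OSN. Ddit4, an mTORC1 inhibitor, differed by 1.61 (SE 0.39), Pidd1, a death domain protein, by 1.56 (SE 0.34) and Siva1, which also promotes apoptosis, by 1.34 (SE 0.13). The targets that fell were Rrm2b, a ribonucleotide reductase subunit that supplies nucleotides for repair (-1.80, SE 0.15, limma adjusted p = 8.6e-05), Ephx1, an epoxide hydrolase (-1.52, SE 0.39), Ddb2, a DNA damage recognition protein (-1.35, SE 0.24), and Ptp4a3, a phosphatase (-0.56, SE 0.13). Ddb2 was at 73.7 to 82.7 TPM in HT OSN and 18.4 to 42.3 TPM in MexHT OSN, and Rrm2b at 33.0 to 38.5 and 8.23 to 10.99 TPM, so that in both the groups did not overlap, as for 16.9% of all genes in that direction. With the Xist covariate 3 targets were called higher and 1 lower, and without HT OSN replicate 1 the counts were 8 and 2.

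**Figure D3:**
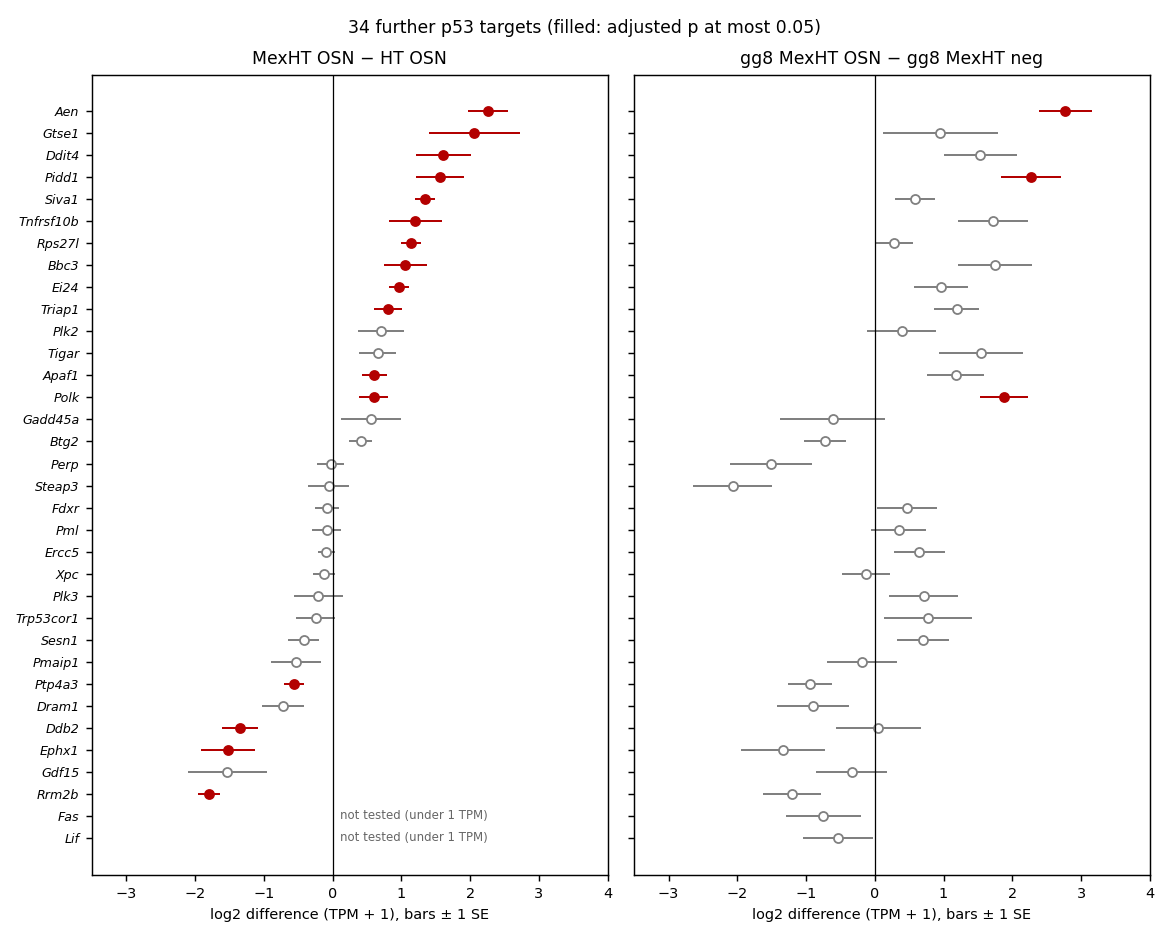
The 34 further p53 targets, ordered by their log2 difference between MexHT OSN and HT OSN (left), with the difference between gg8 MexHT OSN and mCherry-negative cells in the same order (right), bars of 1 SE, and filled points for an adjusted p of at most 0.05. The left panel holds 12 filled points above 0 and 4 below it, and the right panel holds 3, Aen, Pidd1 and Polk.

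In gg8 mice 3 of 34 targets rose and none fell, beside 1.12% and 7.2% of all genes: Aen (log2 difference 2.77, SE 0.37, limma adjusted p = 0.0202), Pidd1 (2.28, SE 0.42, adjusted p = 0.0317) and Polk, a translesion DNA polymerase (1.87, SE 0.33, adjusted p = 0.0299). The median of the list was 0.43, against 0.09 over all genes. The count of 3 was 7 without OSN replicate 1 and 0 without OSN replicate 2 or either mCherry-negative library. In MexHT mice with both drivers, 10 targets were higher and 13 lower in OSN than in mCherry-negative cells, beside 35.8% and 27.6% of all genes. In HT mice 1 was higher, Ddb2, and 8 were lower, beside 2.18% and 9.11%. The HT count of 9 was 4 with voom, 3 without HT OSN replicate 1, 4 without HT OSN replicate 2 and 2 without HT mCherry-negative replicate 1. In mCherry-negative cells of MexHT against HT mice no target passed the limma test, 13 had an unadjusted p under 0.05, and voom called none. The share of all genes under that unadjusted limit was not counted, so nothing is drawn from the 13. In the interaction 5 targets had a more positive MexHT-to-HT difference in OSN than in mCherry-negative cells, Aen, Ei24, Polk, Siva1 and Triap1, and 1 a more negative one, Rrm2b, beside 7.05% and 5.37% of all genes, and Ei24 and Triap1 are named here after their values were seen. The count of 6 was 3 without HT mCherry-negative replicate 1 and 10 without MexHT OSN replicates 5 and 6.

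Of 13 regulators of p53 that passed the filter, 4 rose in MexHT OSN against HT OSN and none fell, beside 19.9% and 16.8% of all genes: Ppm1d, the phosphatase that switches off the damage response (log2 difference 0.75, SE 0.15, limma adjusted p = 0.00393), Rchy1, a ubiquitin ligase for p53 (0.64, SE 0.10), Trp53bp1, a double-strand break protein (0.51, SE 0.09), and Trp73, a p53 relative, which was under 5 TPM in the mean and is named after its value was seen (0.99, SE 0.33). Of 11 genes of the Phlda and Akt list that passed the filter, 2 rose, beside 19.9% of all genes, and 1 result of the list is not reported here. The median log2 difference was 0.03 for the list and 0.03 over all genes. Akt1, the kinase that Phlda3 restrains, rose by 0.64 (SE 0.13, limma adjusted p = 0.00379), and Foxo3, a transcription factor that Akt inactivates, rose by 0.33 (SE 0.11, adjusted p = 0.0352). Phlda1, a relative of Phlda3, was at 38.5 to 54.0 TPM in MexHT OSN and 31.7 to 45.6 TPM in HT OSN, and the groups overlapped. Phlda2 was under the filter in every comparison.

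Within the 6 MexHT OSN libraries, Phlda3 and the other members were high in the same 2 libraries. Pearson's r with Phlda3 on the log2 scale ranged from 0.70 (Mdm2) to 0.86 (Bax) over the 8 members, and Spearman's rho from 0.54 (Trp53 and Ccng1) to 0.83 (Zmat3). These values carry no test, since the Phlda3 levels of these libraries chose it. An r of at least 0.8 was found for 14.6% of 15560 genes. Without replicates 5 and 6, the farthest from the median Phlda3 level, r was -0.56 for Trp53, -0.45 for Ccng1, -0.44 for Bax, 0.00 for Cdkn1a and Trp53inp1, 0.33 for Zmat3, 0.62 for Sesn2 and 0.63 for Mdm2, over 4 libraries, so the relation rests on those 2. Mex3a (r = 0.81) and Atf4 (r = 0.87) were high in the same libraries.

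**Figure D4:**
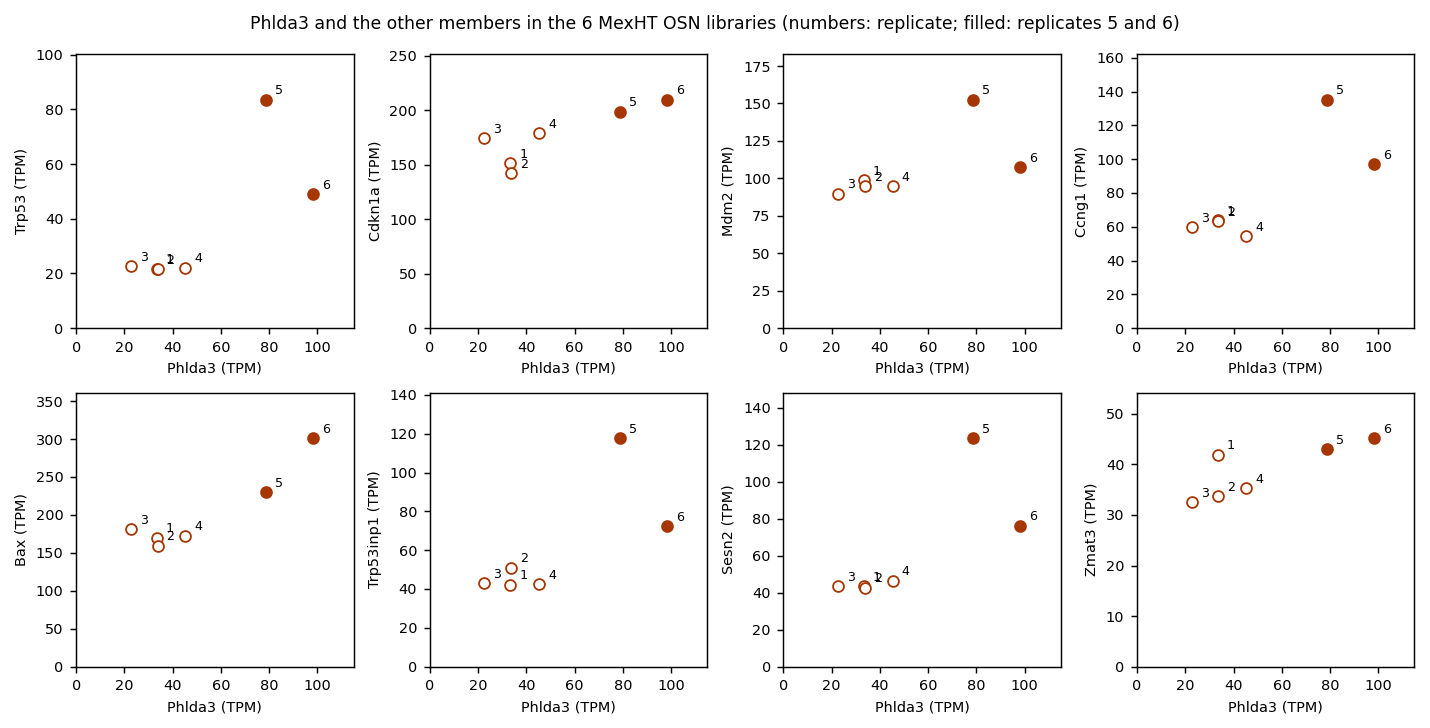
Phlda3 against each of the 8 other tested members in the 6 MexHT OSN libraries, both in TPM on linear axes that start at 0, with replicate numbers beside the points. Replicates 5 and 6 (filled) hold the 2 highest levels of every member shown, and replicates 1 to 4 lie close together with no common slope.

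The 17 libraries with both drivers differ in construct and in fraction, so r across them also carries the differences between groups. Across them, the genes whose levels were most like those of Phlda3 among 12241 genes were Gna11 (r = 0.96), Mprip (0.96), Cuedc1 (0.95), Mal2 (0.95) and Polr2h (0.95). Gna11, a G protein alpha subunit, was at 44.5 to 72.6 TPM in MexHT OSN and 21.1 to 23.3 TPM in HT OSN. Cuedc1 was at 48.8 to 74.8 and 8.73 to 9.72 TPM. Over the same libraries r with Phlda3 was 0.84 for Trp53inp1, 0.81 for Bax and for Cdkn1a, 0.68 for Sesn2, 0.40 for Mdm2, 0.39 for Zmat3, 0.25 for Trp53 and -0.01 for Ccng1. These values describe the libraries and carry no test.

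Of 16 genes next to or overlapping a member that passed the filter in MexHT OSN against HT OSN, 6 were higher and 2 lower, beside 19.9% and 16.8% of all genes. Csrp1, 13855 bases before Phlda3 on chromosome 1, was at 38.5 ± 19.2 TPM (SD, n = 6) in MexHT OSN and 14.5 ± 2.79 TPM (SD, n = 3) in HT OSN (log2 difference 1.23, SE 0.36, limma adjusted p = 0.0219), and Tnni1, 13898 bases after it, was under the filter. Wrap53 lies 97 bases from Trp53 on the other strand and did not pass the test (-0.03, SE 0.18, adjusted p = 0.926). Ftl1, 1808 bases from Bax, did not either (-0.06, SE 0.29, adjusted p = 0.892), while Dhdh on the other side of Bax was lower (-1.19, SE 0.19, adjusted p = 0.00158). The transcript 4930429B21Rik overlaps Zmat3, so that reads of the 2 may not be told apart without strand, and it differed by -0.04 (SE 0.15, adjusted p = 0.868).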

How the data were processed

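The authors sorted mCherry-positive and mCherry-negative cells after papain dissociation and made libraries from 10 ng of TRIzol-extracted RNA with a stranded total RNA kit (SMARTer Pico v2), per the labels' protocols. The deposited values are TPM per gene, in one table of 17 and one of 4 libraries. The submitters' processing notes name FastQC, cutadapt, STAR, bedtools and mm10. The annotation, the counting program and its use of strand are not given in the sources used here. Tables were tested separately, and no column of per-sample values was left unused (0 columns). Symbols that a spreadsheet had turned into dates, 27 in each file, were left out.

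log2(TPM + 1) was computed from the deposited TPM and tested with limma 3.58.1 in R 4.3.3 (moderated, intensity trend, two-sided), over genes averaging 1 TPM or more in the libraries fitted, with Benjamini-Hochberg adjustment over all genes and a threshold of 0.05. The fold understates changes of low genes. Whole counts were recovered from the TPM for 23613 of 23614 and 22775 of 22808 genes within 0.01 counts and used for depth, counting intervals and voom. The labels do not say whether replicates of a group are separate mice in every case, so p-values measure the spread between these libraries. The scripts were tested on simulated data.

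The 10 members and the gene lists were chosen with earlier results of these data known. Named from the lists were genes called in MexHT OSN against HT OSN or in the gg8 comparison averaging 5 TPM or more in the group where they were higher, at most 5 per list and direction, as well as the 5 genes most like Phlda3 and the genes beside members. The labels give the mCherry-negative cells as the control of the same mouse, so numbers pair the fractions. The main tests between fractions were unpaired, and the replicate block used the pairs. Deviations from the group mean in paired fractions had r of 0.185, 0.279, -0.109, 0.095 and 0.421 in MexHT mice. In HT mice r was 0.174, 0.3 and 0.475, and in gg8 mice it was 0.0178. Same-numbered MexHT and HT mCherry-negative libraries deviated together (r = 0.337, 0.418 and 0.231). Differently numbered ones among replicates 1 to 3 had r of -0.399 to 0.0155, but the highest r, 0.476, was that of MexHT replicate 5 with HT replicate 3. Same-numbered OSN libraries did not deviate together in every pair (r = 0.115, 0.132 and -0.228). Alternatives were another pseudocount, no filter, other scalings, voom, a replicate block, all groups in one fit, an Xist covariate and leaving out libraries. Promoter windows came from RefSeq (GRCm38.p6). One result of the Phlda and Akt list is not reported here.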

Additional observations from a re-analysis of the deposited data

Results flagged for a closer look

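Of 20 sets of libraries examined (10 members in MexHT OSN and in MexHT mCherry-negative cells), 4 held 1 library far above the others. The limit used is a 95% one, by which chance would flag about 1 in 20, and these 4 come from 2 libraries and are not independent. In MexHT OSN replicate 5, Mdm2 was at 152.4 TPM with the next library at 107.5 TPM, and Eda2r was at 1.29 TPM with the next at 0.316 TPM, from 31 counts against 1 to 5. In MexHT mCherry-negative replicate 1, Phlda3 was at 38.3 TPM with the next library at 15.0 TPM, and Ccng1 was at 98.7 TPM with the next at 61.6 TPM.

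The MexHT-to-HT difference was more positive in OSN than in mCherry-negative cells for Bax, by 1.48 on the log2 scale (limma adjusted p = 0.0018). For Zmat3 it was more positive by 0.94 (limma adjusted p = 0.0213).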

How the results depend on the processing

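Counted together were the members and targets called and the members with a positive r with Phlda3. Of these counts, 177 values under an alternative stayed within 1.5 times the main count and 32 did not. The 177 include the counts for MexHT against HT mCherry-negative cells, which were 0 throughout. In MexHT OSN against HT OSN, the Xist covariate left 1 member and 4 targets called, and leaving out 1 library gave 10 to 18 targets. With the replicate block, whose numbers do not pair these OSN libraries, 5 members and 15 targets were called and Trp53 was at -0.030, and at -0.028 without MexHT OSN replicates 5 and 6 (an alternative chosen after seeing the data). Ccng1 was at 0.24 with the Xist covariate, and from -0.84 to 0.25 when 1 library was left out. In mCherry-negative cells, the Xist covariate put Cdkn1a at -0.023, Mdm2 at -0.059 and Sesn2 at -0.046, and Ccng1 ranged from -0.15 to 0.085 without 1 library. Between MexHT fractions, Ccng1 was at -0.084 and Trp53inp1 at -0.19 without replicates 5 and 6, and Trp53inp1 ranged from -0.050 to 0.24 without 1 library. Between HT fractions, 3 members were called with the replicate block, 0 with all 4 groups in one fit and 0 to 3 without 1 library. Targets numbered 4 with voom and 2 to 13 without 1 library, and Ccng1 ranged from -0.020 to 1.07, Bax from -0.12 to 0.038 and Sesn2 from -0.018 to 0.28. In gg8 mice, 1 member was called with a pseudocount of 0.1, with no filter, without the 100 highest genes in the scaling, with voom and with the replicate block, and leaving out 1 library gave 0 to 4 members and 0 to 7 targets. Trp53 was there at -0.059 with median-of-ratios scaling, -0.051 without the 100 highest genes, -0.055 with voom and -1.03 to 1.06 without 1 library. In the interaction, leaving out 1 library gave 1 to 3 members and 3 to 7 targets, and 10 targets were called without replicates 5 and 6. Mdm2 was at -0.053 with median-of-ratios scaling, -0.065 with voom, -0.094 without replicates 5 and 6 and -0.057 to 0.12 without 1 library, and Ccng1 ranged from -0.85 to 0.24. Phlda3 had a positive r with 5 of 8 members without the 2 farthest libraries. The cause of these shifts was not tested. The replicate block changed no other member's call than those given with the results.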
